A study of Mus musculus with 6 samples.

Results

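Nuclear genes of the mitochondrial respiratory chain were followed with age in degenerated retina of the mouse strain rd1/rd1. The 81 genes were chosen by symbol: those that start with Nduf, Sdh, Uqcr, Cox4 to Cox8 or Atp5, with Cyc1 and Cycs and without the Sdhaf and Ndufaf assembly factors, out of 19057 genes that the array annotation names through a probe of a single symbol. In rd1, a mutation of the rod phosphodiesterase gene Pde6b makes rods and later cones degenerate, and both age groups carry it. The groups were 2 and 8 months old and untreated, with 3 independent samples each, and every sample pooled 3 to 6 punches of 1.5 mm from the central retina. The labels do not give the number of animals in a pool, and no sample of a sighted strain was analysed here. The p-values measure only the spread between these pools, which may be technical.

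The respiratory chain of the inner mitochondrial membrane passes electrons from NADH (complex I) and succinate (complex II) to coenzyme Q, on to cytochrome c through complex III, and to oxygen through complex IV. The protons pumped on the way drive ATP synthase, complex V. Most subunits are encoded in the nucleus and a few in the mitochondrial genome. In the retina, photoreceptor inner segments are packed with mitochondria, and the synapses of inner retinal neurons also hold many.

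Signals are on the deposited log2 or log2-like scale, and the median probe of an array lies at 7.19. Fold differences given here take 1 unit as a doubling, which holds only if the scale is plain log2. A gene was tested where at least 1 of its probes exceeded the 50th percentile of its array on at least 3 arrays, and it was represented by its brightest such probe. Of the 81 genes 77 were tested, among 12046 genes in all. The 4 others lay below that limit: Ndufs1, the largest subunit of complex I, Sdha, the flavoprotein of complex II, and Cox7b2 and Cox8c, known as testis isoforms of complex IV, had means of 7.12, 7.12, 7.10 and 7.11. A probe this dim gives no level for its gene. Of the 77, 11 had means below 8, where differences are compressed.

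The comparison asked whether respiratory chain genes changed between 2 and 8 months of a late degeneration. No member passed limma's test, adjusted by Benjamini and Hochberg's method over the 12046 genes: at a threshold of 0.05, 0 of 77 were higher and 0 lower at 8 months, beside 0.158% of all tested genes called higher, 0.0664% called lower and 0.224% in either direction. At an unadjusted p below 0.05, 0 members were higher and 3 lower, or 3.90% of the 77, beside 5.1% of all genes higher, 5.34% lower and 10.4% either way. The 3 values of each age did not overlap for 6 members, all lower at 8 months (7.79%), beside 7.45% of all genes apart in the higher direction, 7.59% in the lower and 15% in either. The members' shares lay near or below those of all genes.

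The sizes were small. The change, 8 months minus 2 months, was below 0.2 in size for 73 of the 77 members (94.8%) and for 91.9% of all tested genes. The median change was −0.027 over the members and 0.00048 over all genes, with 47 members negative (61.0%) and 30 positive. Of all genes 49.8% were negative. The share was 61.6% for mitochondrial and 71.2% for cytosolic ribosomal protein genes. Members ran from −0.96 (Cox8b) to 0.18 (Cox6c), and their median standard error was 0.0762, larger than the median size of their changes, 0.0572. For 74 of 77 members (96.1%) the 95% interval of the change lay within a 1.5-fold difference either way, against 97.2% of all genes. Of the 66 members at or above 8 in mean, 64 met that bound, beside 96.0% of all such genes. The 3 exceptions, Cox8b, Cox6a2 and Cox4i2, all belong to complex IV.

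**Figure D1:**
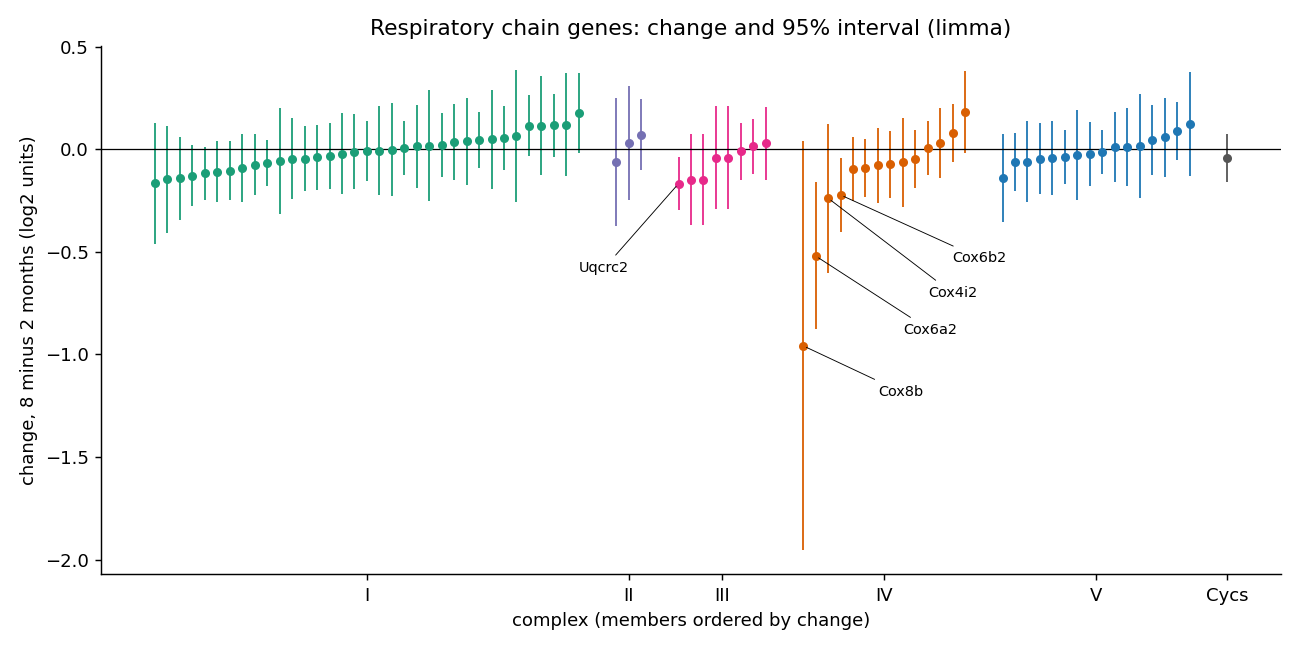
Change from 2 to 8 months (log2 units) of the 77 tested respiratory chain genes, grouped by complex and ordered by change, with limma's 95% interval as bars. For 73 genes the point lies within 0.2 of zero, and the interval of Cox8b spans −1.95 to 0.039.

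**Figure D2:**
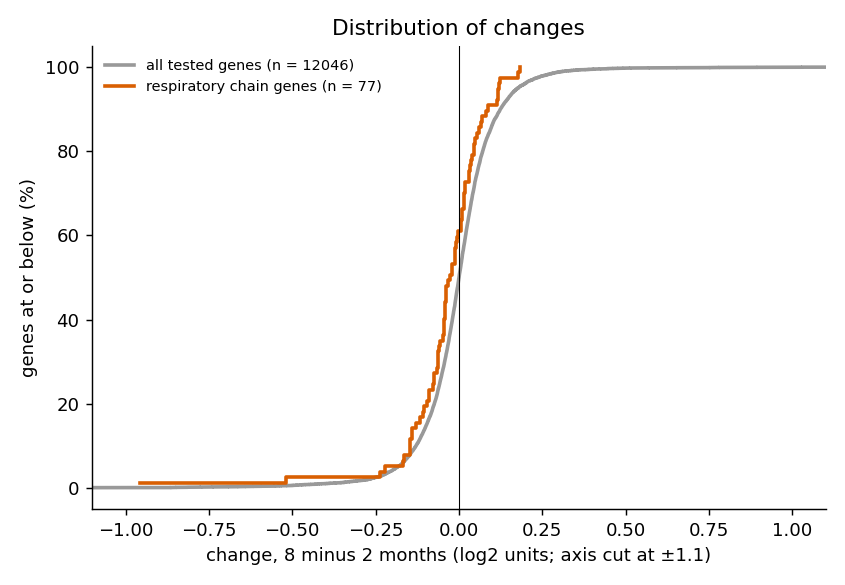
Cumulative share of genes (%) against the change from 2 to 8 months (log2 units) for the 77 respiratory chain genes and all 12046 tested genes. The medians are −0.027 and 0.00048.

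In the same samples the cone arrestin gene Arr3 fell from a mean of 9.24 to 7.68 (change −1.55, SE 0.127, limma adjusted p = 0.00936). The mean log2 level of 9 tested cone markers was 9.81 to 10.17 in the 2 month samples and 8.52 to 9.13 in the 8 month samples. Of these 9, 7 had negative changes, only Arr3 and Gnat2 were called, and Gnb3 and Cngb3 did not fall (changes 0.049 and 0.017). The mean of 7 rod markers was 8.25 to 8.49 at 2 months and 7.85 to 8.04 at 8 months. Only 3 of their changes were negative, and the median change was 0.0038. Sag and Pde6g had changes of −1.81 and −1.35, and Gnat1 and Nrl changes of 0.15 and 0.13, none of them called. In bulk tissue, fewer cells of a type and less RNA per cell cannot be told apart. Among markers of the inner retina, the mean level over 6 bipolar cell genes was 11.33 to 11.38 at 2 months and 11.25 to 11.35 at 8 months. The mean of 7 amacrine cell genes was 11.08 to 11.15 at 2 months and higher in every 8 month sample, 11.23 to 11.36, with 6 positive changes and a median change of 0.14. Among them Gad2, an enzyme of GABA synthesis, did not pass over all genes (change 0.51, SE 0.0964, limma adjusted p = 0.135). Among markers of other tissue, the mean of 10 skeletal muscle genes was 8.94 in 2 month replicate 2 and 7.69 to 8.20 in the 5 others. The mean of 10 pigment epithelium genes was 10.33 in that sample and lowest, at 8.84, in 8 month replicate 3, which was also the lowest for cones. The mean of 4 red blood cell genes was 9.81 to 10.89 at 2 months and 8.95 to 9.00 at 8 months. The part of these cells in the values of respiratory chain genes was not tested.

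Complex I takes electrons from NADH, and its 35 tested members split into 15 positive and 20 negative changes, with a median of −0.0079. None had an unadjusted p below 0.05, and the smallest adjusted p was 0.533 (limma). The 95% interval lay within 1.5-fold for all 35. Ndufa11, a membrane subunit, had the largest positive change of the complex, 0.18 (SE 0.0823). Its values were 10.67, 10.64 and 10.92 at 2 months and 10.89, 10.99 and 10.88 at 8 months, so 2 month replicate 3 reached the 8 month level. Ndufb8, another accessory subunit, had the largest negative change, −0.17 (SE 0.125), with overlapping ages.

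For 3 members of complex I (8.57%) the ages did not overlap, all lower at 8 months. Over all genes the shares were 7.59% in that direction and 15% in either. Ndufab1, the mitochondrial acyl carrier protein, was at 11.87, 11.86 and 11.92 at 2 months and 11.82, 11.68 and 11.81 at 8 months (change −0.12, SE 0.0552, limma adjusted p = 0.551), and its 4 kept probes had changes from −0.12 to −0.025. Ndufb6, an accessory membrane subunit, was at 12.06, 11.92 and 11.95 and then 11.88, 11.75 and 11.91 (change −0.13, SE 0.0636, limma adjusted p = 0.572), while its other probe had a change of 0.022. In both genes 8 month replicate 2 was the lowest sample and the gap between the ages was narrow. For Ndufa1, an accessory subunit encoded on the X chromosome, 2 month replicate 1 stood apart at 12.59, with the 5 other samples between 12.22 and 12.29 (change −0.14, SE 0.0869).

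Of the subunits that carry redox centres in complex I, 4 are given here by role, and Ndufs1 was not measured. Ndufv1, the flavoprotein that binds NADH, had one of 0.046 (SE 0.0581), and its partner Ndufv2 one of −0.046 (SE 0.0839). The iron-sulphur subunits Ndufs7 and Ndufs8 had changes of 0.019 (SE 0.0665) and 0.048 (SE 0.102). Each of the 4 changes was smaller than its standard error. Ndufb9, an accessory subunit, was at 8.53, 8.45 and 8.65 at 2 months and 8.60, 8.69 and 8.68 at 8 months (change 0.12, SE 0.0629), with 2 month replicate 3 among the 8 month values. Ndufa13, also known for a role in cell death, and Ndufa4, today counted in complex IV, had changes of 0.039 (SE 0.0905) and −0.011 (SE 0.0782). One entry, Ndufs5-ps, is named as a pseudogene of Ndufs5, so its change of −0.11 cannot be assigned to that subunit.

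Complex II, succinate dehydrogenase, is shared with the tricarboxylic acid cycle, and its 3 tested genes had a median change of 0.030. Sdhb, the iron-sulphur subunit, was at 10.03, 10.02 and 9.82 at 2 months and 9.59, 10.12 and 9.98 at 8 months (change −0.062, SE 0.134). Its lowest and highest values both came from 8 month samples. Another probe of Sdhb had a change of 0.29, so the gene's direction was not settled. The membrane anchors Sdhc and Sdhd had changes of 0.030 (SE 0.119) and 0.071 (SE 0.0737).

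Complex III moves electrons from coenzyme Q to cytochrome c, and 6 of its 8 tested genes had negative changes, with a median of −0.040. Uqcrc2, a core protein of the matrix side, was at 12.42, 12.54 and 12.49 at 2 months and 12.33, 12.26 and 12.37 at 8 months. All its 2 month values lay above all its 8 month values, with means of 12.48 ± 0.0641 and 12.32 ± 0.0537 (SD, n = 3). The change of −0.17 (SE 0.0555, 95% interval −0.30 to −0.037, unadjusted p = 0.0185) did not pass over all genes (limma adjusted p = 0.349). Leaving out 1 sample at a time gave −0.20 to −0.14.

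The catalytic subunit Cyc1 and the hinge protein Uqcrh gave changes of like size with wider error. Cyc1, whose haem hands electrons to cytochrome c, was at 10.85, 10.88 and 11.10 at 2 months and 10.64, 10.90 and 10.86 at 8 months (change −0.15, SE 0.0943). Uqcrh was at 12.81, 13.01 and 12.77 and then 12.85, 12.56 and 12.74 (change −0.15, SE 0.0945). The ages overlapped in both genes, and the samples that stood lowest differed, 8 month replicate 1 for Cyc1 and 8 month replicate 2 for Uqcrh. The small membrane subunits Uqcr10 and Uqcr11 had changes of −0.040 (SE 0.107) and 0.030 (SE 0.0756), and Uqcrc1, the other core protein, one of −0.041 (SE 0.107). The Rieske protein gene Uqcrfs1, with a mean level of 7.21, was too dim to show a change. Cycs, cytochrome c itself, was at 11.49, 11.40 and 11.40 at 2 months and 11.42, 11.38 and 11.37 at 8 months (change −0.041, SE 0.0497). The others of its 3 kept probes went the opposite way, with changes of 0.097 and 0.089.

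Complex IV, cytochrome c oxidase, held the largest changes. Of its 14 tested genes 10 had negative changes, with a median of −0.075, which was −0.035 without 2 month replicate 2. Several of its small nuclear subunits come in isoforms, one present in most tissues and another restricted to heart and skeletal muscle, lung or testis. The 4 most negative changes of all members were those of restricted isoforms. The common form Cox4i1 had a change of 0.081 (SE 0.0603), Cox6a1 one of −0.095 (SE 0.0669), Cox6b1 one of −0.077 (SE 0.0780) and Cox7a2 one of −0.091 (SE 0.0604). Other probes of Cox6a1 and Cox6b1 had changes of 0.0054 and 0.048.

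The subunits Cox5a and Cox5b had changes of −0.073 (SE 0.0700) and −0.048 (SE 0.0600), and Cox7b, whose testis partner Cox7b2 lay below the filter, one of 0.032 (SE 0.0724). Cox6c had the largest positive change among all members and was at 12.15, 11.96 and 11.86 at 2 months and 12.12, 12.28 and 12.12 at 8 months (change 0.18, SE 0.0852, limma adjusted p = 0.535). Its 2 month replicate 1 lay among the 8 month values. Cox7a2l, which links complexes III and IV and is no classical subunit, had a change of −0.064 (SE 0.0922).

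Cox8b, the heart and skeletal muscle isoform of subunit VIII, was at 9.39, 10.26 and 8.91 at 2 months and 8.67, 9.21 and 7.79 at 8 months. The ages overlapped, because 8 month replicate 2 lay above 2 month replicate 3, and the spread within each age was wide. The means were 9.52 ± 0.682 and 8.56 ± 0.718 (SD, n = 3), a change of −0.96 (SE 0.425) and a 1.94-fold higher mean at 2 months, with a limma adjusted p of 0.4996. Leaving out 1 sample at a time gave −1.29 to −0.57, the most negative without 8 month replicate 2. Leaving out 2 month replicate 2 gave −0.59, and leaving out 8 month replicate 3 gave −0.57. Without both, an alternative chosen after seeing the data, it was −0.20, and since these are the highest and the lowest value, leaving them out had to shrink it.

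Cox6a2, the heart and skeletal muscle isoform of subunit VIa, was at 7.82, 8.20 and 7.53 at 2 months and 7.35, 7.37 and 7.27 at 8 months. Every 2 month value exceeded every 8 month value, and the 8 month samples lay close to the array median. The means were 7.85 ± 0.339 and 7.33 ± 0.0545 (SD, n = 3), with a change of −0.52 (SE 0.153) and an unadjusted p of 0.0107. It had the smallest p of all members and did not pass over all genes (limma adjusted p = 0.286). Leaving out 1 sample at a time gave −0.68 to −0.34. Cox7a1, the heart and skeletal muscle isoform of subunit VIIa, was at 8.31, 8.37 and 8.38 at 2 months and 8.40, 8.40 and 8.27 at 8 months (change 0.0051, SE 0.0565), with the ages fully mixed.

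Cox8b and Cox6a2 were both highest in 2 month replicate 2, the sample with the highest skeletal muscle, pigment epithelium and red blood cell markers. There the muscle myosin light chain gene Myl1 was at 11.14, against 9.32 and 7.31 in 2 month replicates 1 and 3 and 7.14 to 7.52 at 8 months. Within each age Cox8b had the same order of samples as Myl1, and so did Cox6a2. The mean of the 9 cone markers also had this order. How many of all genes shared it was not counted. Of the 10 tested muscle markers 9 had negative changes. The exception, Tnnc1, had the smallest p of the list and was higher at 8 months, with no overlap (change 0.47, SE 0.0830, limma adjusted p = 0.108). Tnnc1, Acta1, Tnnt1 and Actn3 did not share the order of samples that Myl1 had within each age. Ckm, Myh1, Myh4 and Tnnt3 lay below the filter. Cox8b was lowest in 8 month replicate 3, the sample with the lowest pigment epithelium and cone markers. The part of these tissues in the changes of Cox8b and Cox6a2 was not tested.

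**Figure D3:**
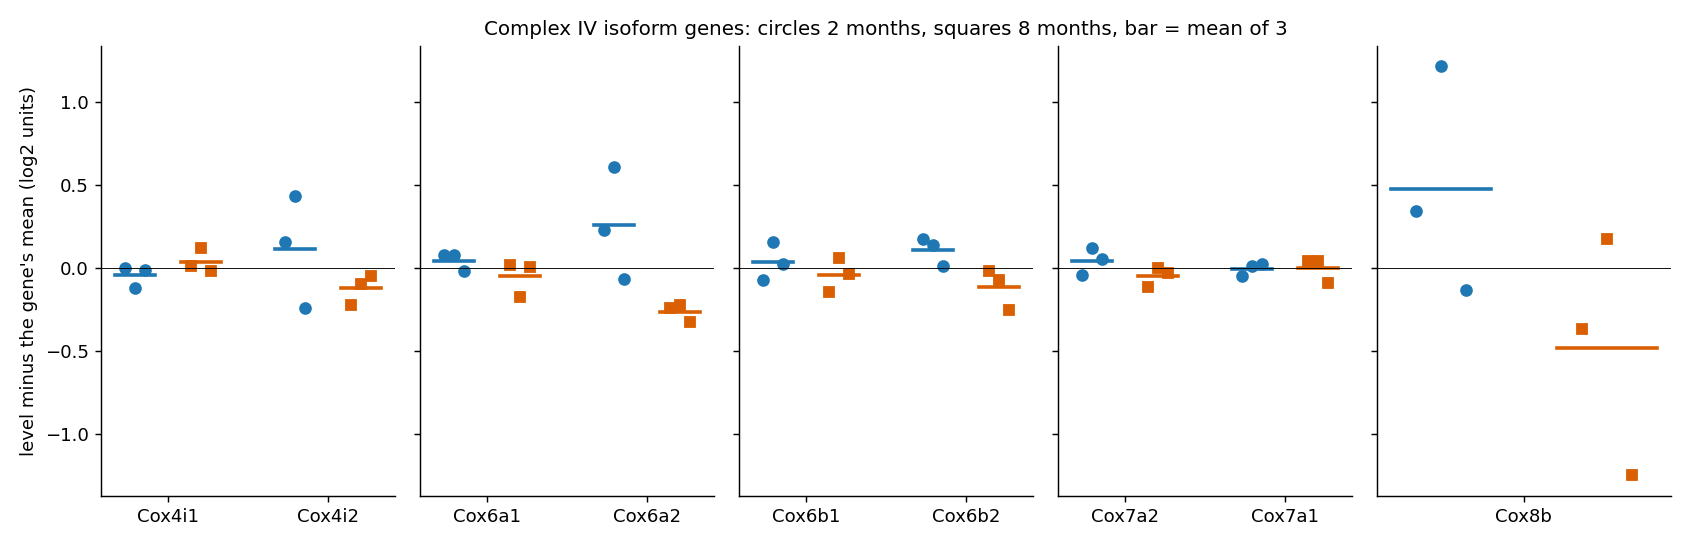
Level of complex IV isoform genes in each sample minus the gene's own mean (log2 units), with circles for 2 months, squares for 8 months and bars for the mean of 3 samples. In level, Cox8b runs from 7.79 to 10.26, while Cox7a1 stays between 8.27 and 8.40.

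**Figure D4:**
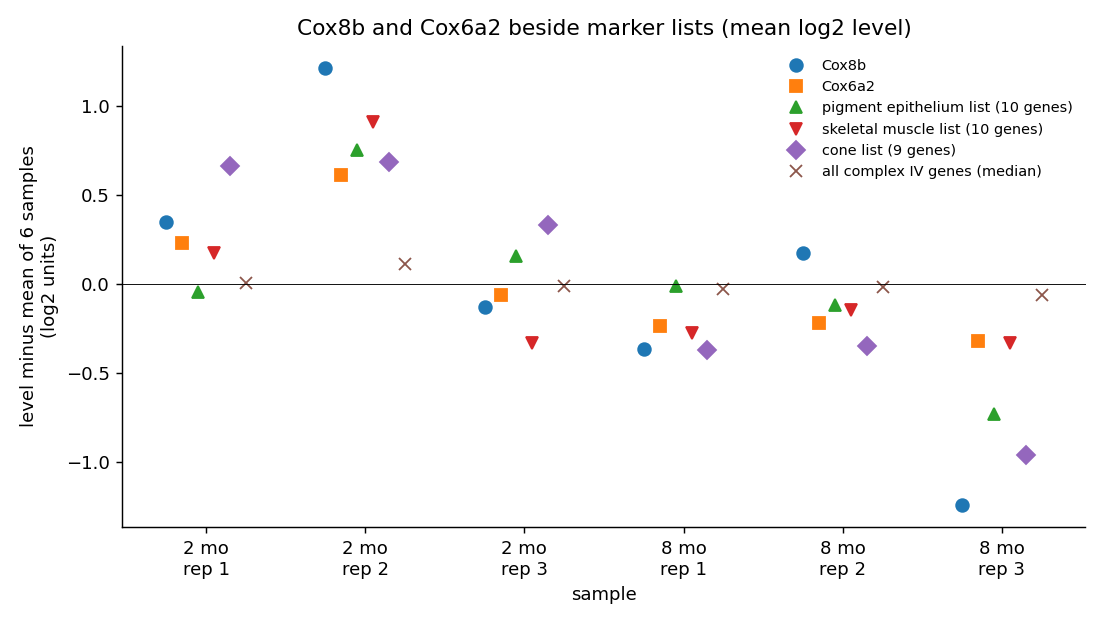
Level in each of the 6 samples relative to the mean of the 6 (log2 units) for Cox8b, Cox6a2, the mean of 3 marker lists and the median of complex IV genes. In 2 month replicate 2, where Cox8b is at 10.26 and Cox6a2 at 8.20, the muscle and pigment epithelium lists are also at their highest.

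The other restricted isoforms differed less. Cox4i2, an isoform best known from lung, was at 8.63, 8.90 and 8.23 at 2 months and 8.25, 8.38 and 8.42 at 8 months (change −0.24, SE 0.155), and 2 month replicate 3 was the lowest of all samples. Leaving out 1 sample at a time gave −0.42 to −0.080, the smallest without 2 month replicate 2. Cox6b2, known as a testis isoform, was at 8.02, 7.99 and 7.86 and then 7.83, 7.78 and 7.60, with no overlap (change −0.22, SE 0.0765, unadjusted p = 0.0218, limma adjusted p = 0.372). Its other probe had a change of 0.10.

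Upstream sequences of 3 isoform genes are shown. They set a common isoform (Cox6a1) beside a muscle isoform with even levels (Cox7a1) and one with uneven levels (Cox8b). The 3 are not partners of each other. Cox6a2, the muscle partner of Cox6a1, had no upstream sequence in the source used, and Cox8a, the partner of Cox8b, was not among the genes chosen. Each is the 250 bases before the annotated start, 5′ to 3′ on the gene's strand, from RefSeq on GRCm38.p6. Capitals mark matches on either strand to 3 motifs chosen after the values were seen. The first is the NRF1 motif, GCGC and TGCGC with 1 free base between them, named for a regulator known for respiratory chain genes. The second is CCGGAAG, a core of ETS factors such as GABP, and the third CAGCTG, an E-box of a kind that muscle regulators bind.
Cox6a1, chr5:115348959-115349208, minus strand: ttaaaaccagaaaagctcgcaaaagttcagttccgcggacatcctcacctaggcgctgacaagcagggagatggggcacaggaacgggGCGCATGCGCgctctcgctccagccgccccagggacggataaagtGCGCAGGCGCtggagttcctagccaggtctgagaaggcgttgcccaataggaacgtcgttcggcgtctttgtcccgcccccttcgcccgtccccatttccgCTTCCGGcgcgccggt
Cox7a1, chr7:30183921-30184170, plus strand: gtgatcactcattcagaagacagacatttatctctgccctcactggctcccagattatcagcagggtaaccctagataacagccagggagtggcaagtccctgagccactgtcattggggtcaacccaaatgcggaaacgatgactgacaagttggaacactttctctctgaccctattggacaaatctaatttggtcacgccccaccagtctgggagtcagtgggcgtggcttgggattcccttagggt
Cox8b, chr7:140900447-140900696, minus strand: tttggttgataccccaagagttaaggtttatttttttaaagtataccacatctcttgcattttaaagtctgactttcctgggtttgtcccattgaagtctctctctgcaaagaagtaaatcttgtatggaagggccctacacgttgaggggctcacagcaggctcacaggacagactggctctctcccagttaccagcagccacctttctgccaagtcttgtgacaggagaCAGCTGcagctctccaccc

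The window of Cox6a1 held 2 matches to the NRF1 motif and 1 to the ETS core, that of Cox8b 1 E-box and that of Cox7a1 no match. The windows also differed in CpG dinucleotides, with 26 in Cox6a1, 4 in Cox7a1 and 1 in Cox8b. RefSeq gave 69 such windows for 64 of the 77 tested members. The NRF1 motif was in 12 of them (17.4%), against 3.74% of all 32851 windows, and the ETS core in 12 (17.4%, against 6.91%). The E-box was in 5 (7.25%, against 13.001%). These are letter matches and no measure of binding.

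ATP synthase uses the proton gradient to make ATP, and its 16 tested genes had 7 positive and 9 negative changes, with a median of −0.016. None had an unadjusted p below 0.05, and the ages overlapped for all 16. Atp5b, the catalytic beta subunit, was at 14.25, 14.21 and 14.26 at 2 months and 14.43, 14.16 and 14.27 at 8 months (change 0.045, SE 0.0726), with the highest and lowest values both from 8 month samples. Atp5a1, the alpha subunit, was at 9.59, 9.47 and 9.35 and then 9.39, 9.60 and 9.79 (change 0.12, SE 0.108), and its other kept probe had a change of −0.034. Atp5g2 and Atp5g3, genes for the same c subunit of the membrane rotor, had changes of 0.059 (SE 0.0823) and 0.089 (SE 0.0605). Atp5e, the epsilon subunit, had the most negative change of the complex, −0.14 (SE 0.0909), and Atp5mpl, a small membrane subunit, one of −0.063 (SE 0.0605). Atpif1, the inhibitor of the enzyme, had a change of −0.13 (SE 0.0784).

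Over the samples, the median deviation of a complex's genes from their own means differed little between ages. For complex IV it was 0.018, 0.12 and 0.00088 at 2 months and −0.018, −0.0035 and −0.054 at 8 months. The ages did not overlap there, by a narrow gap, and 2 month replicate 2 stood highest. For complex I it ran from −0.049 in 8 month replicate 3 to 0.035 in 8 month replicate 2. For complex III it ran from −0.047 to 0.073, for complex V from −0.035 to 0.058, and for the 3 genes of complex II from −0.11 to 0.19. In complexes I, II, III and V the ages overlapped.

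**Figure D5:**
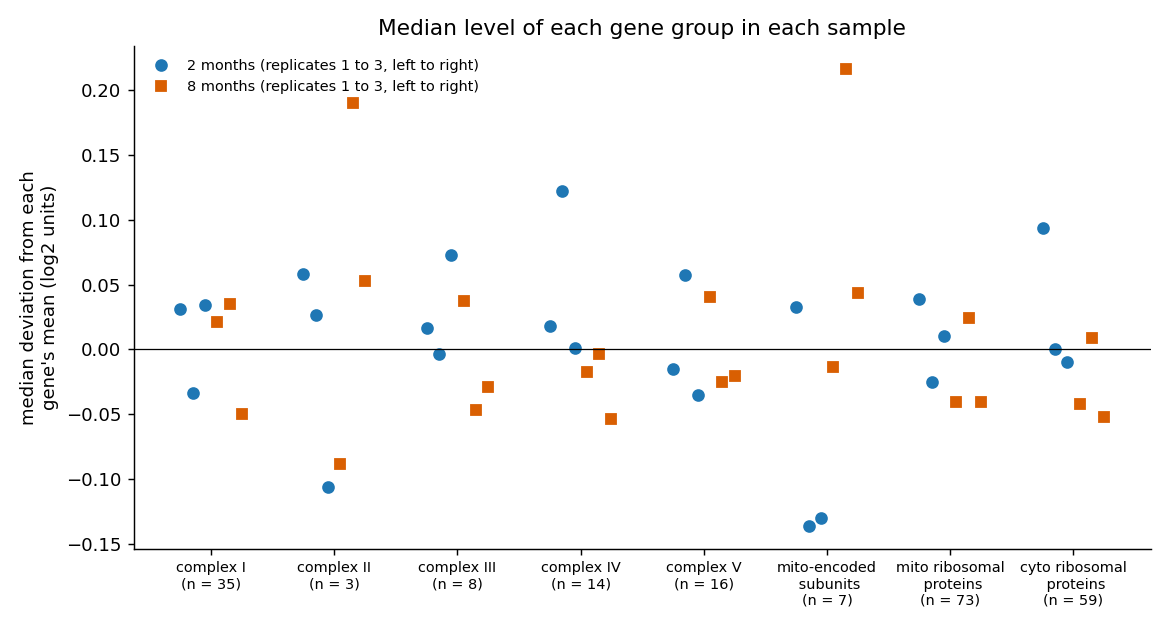
Median deviation of the genes of a group from their own means (log2 units) in each sample, for complexes I to V, mitochondrially encoded subunits and ribosomal proteins, with circles for 2 and squares for 8 months. The ages overlap in complexes I, II, III and V, and in complex IV 2 month replicate 2 stands highest at 0.12.

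Subunits encoded in the mitochondrial genome are transcribed inside the organelle and were read through 7 tested genes, named on the array without the usual prefix. None passed over all genes, and 6 changes were positive and 1 negative. The median change was 0.12, ranging from 0.046 to 0.19 with 1 sample left out. The median deviation ran from −0.14 to 0.033 at 2 months and from −0.014 to 0.22 at 8 months, so the ages overlapped. By gene, 1 of the 7 was apart (14.3%), beside 15% of all genes in either direction. ND1, a membrane subunit of complex I, was at 13.22, 12.94 and 13.06 at 2 months and 13.25, 13.43 and 13.26 at 8 months, with no overlap (change 0.24, SE 0.0847, unadjusted p = 0.0246, limma adjusted p = 0.385). ATP6, a subunit of complex V, was at 12.38, 12.01 and 12.18 and then 12.30, 12.60 and 12.41 (change 0.25, SE 0.110), and its ages overlapped. CYTB, the cytochrome b of complex III, had a change of 0.11 (SE 0.0604).

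Assembly factors build the complexes without staying in them, and none of the 43 tested passed over all genes. At an unadjusted p below 0.05, 3 were higher and 1 lower (9.30%, beside 10.4% of all genes either way), and the median change was 0.020. Cox10, which takes part in making the haem of complex IV, was at 10.41, 10.31 and 10.35 at 2 months and 10.21, 10.17 and 10.15 at 8 months (change −0.18, SE 0.0497, limma adjusted p = 0.273). Uqcc2, needed for the assembly of complex III, was at 12.25, 11.91 and 12.12 and then 12.32, 12.47 and 12.40 (change 0.30, SE 0.0894, limma adjusted p = 0.294). The ages did not overlap in either gene, Cox10 being lower and Uqcc2 higher at 8 months. Of the 43, 4 were apart in the higher direction and 1 in the lower (11.6%), beside 15% of all genes in either.

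Regulators of mitochondrial biogenesis, 21 tested, had a median change of 0.0028. At an unadjusted p below 0.05, 0 were higher and 2 lower (9.52%, beside 10.4% of all genes either way). With no overlap of the ages, 0 were higher and 3 lower (14.3%, beside 15% of all genes in either direction). Nrf1 had a change of −0.040 (SE 0.0885), Tfam, which packages the mitochondrial genome, one of 0.0064 (SE 0.0638), and the coactivator Ppargc1a one of −0.085 (SE 0.102). The orphan receptor Esrrb, known from rods, had the smallest p of the list, at 8.05, 7.95 and 7.74 at 2 months and 7.50, 7.65 and 7.56 at 8 months (change −0.35, SE 0.0859, limma adjusted p = 0.226), with no overlap. Mterf4, a factor of the mitochondrial ribosome, had a change of −0.14 (SE 0.0469).

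In the tricarboxylic acid cycle, 16 tested, the median change was 0.0055. With no overlap of the ages, 2 were higher and 1 lower (18.75%, beside 15% of all genes in either direction). At an unadjusted p below 0.05, 2 were higher and 1 lower (18.75%, beside 10.4% of all genes either way). Cs, citrate synthase, was at 10.11, 9.91 and 9.98 at 2 months and 10.67, 10.36 and 10.19 at 8 months (change 0.41, SE 0.121, limma adjusted p = 0.294), with no overlap, and Dld, a dehydrogenase subunit shared by several enzymes, had a change of 0.15 (SE 0.0483). Among 12 tested carriers and pores the median was −0.051, with 0 higher and 1 lower at that p (8.33%). The adenine nucleotide carrier Slc25a5 had a change of −0.15 (SE 0.0554) and the phosphate carrier Slc25a3 one of 0.14 (SE 0.0737). The 73 mitochondrial ribosomal protein genes had a median of −0.014, with Mrpl53 at −0.24 (SE 0.0902) and Mrps31 at −0.16 (SE 0.0603). The 59 cytosolic ones had a median of −0.057, with Rpl22 at −0.22 (SE 0.0596) and Rps9 at −0.14 (SE 0.0444). Of the mitochondrial ribosomal genes 0 were higher and 3 lower at that p (4.11%), and of the cytosolic ones 0 and 7 (11.9%). Over all genes 5.1% were higher and 5.34% lower. No gene of the biogenesis, cycle, carrier or ribosomal groups was called, and no list was tested against the respiratory chain.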

How the data were processed

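RNA from 6 pools of central retina was made into biotinylated cRNA and hybridised to Illumina bead arrays, per the labels' protocols. The authors deposited 1 value per probe and sample for 45281 probes, on a log2 or log2-like scale from 6.98 to 14.5. Sorted columns agree within 0.00307, as after quantile normalization, and the software is not given in the sources used here. The number of arrays limits precision.

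Groups came from the titles. Of the probes, 34885 had 1 symbol, 18 several and 10378 none in the platform annotation, and all 126 member probes matched a RefSeq gene number. The filter kept 22458 probes, 112 of them of members. The ages were compared with limma (version 3.58.1, R 4.3.3), using lmFit and eBayes without covariates, and standard errors are moderated. Of 27 members with several kept probes, 15 had probes of both signs. Members and lists were chosen with earlier results of these data known. The rule for named genes took called members, the 4 smallest p and 2 brightest of each complex, isoform groups, the 3 largest changes in each direction, Cyc1, Cycs, members without a kept probe, symbols that are no subunit, and the 2 smallest p of each other list. Further members and regulators were named for their role after their values were seen. Simulated data for this comparison (12046 genes) gave back 10% of 50 genes at a change of 0.2, 78% at 0.5 and 96% at 1, with 8 false calls among 150. The simulated noise was normal and independent between genes, and the real data gave only 27 calls, so these shares need not hold for them. In the real data the cone gene Pde6h, with a change of −2.47 (SE 0.458), was not called (limma adjusted p = 0.123).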

Additional observations from a re-analysis of the deposited data

How the results depend on the processing

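Cox8b was called under the replicate block, and no member under any other alternative. Whether the replicate numbers of the titles pair the samples was not settled. The correlations of deviations were 0.024, 0.14 and 0.16, with none for mismatched numbers beside them. With the replicate block 1 member was called lower, Cox8b at −0.96 (limma adjusted p = 0.0338), and 18 genes lower in all against 8. All-gene calls were 5 higher and 2 lower with no filter, 38 and 35 with the stricter filter, 44 and 48 with a trend with mean level, and 4 and 4 without 2 month replicate 2 and 8 month replicate 3 together, chosen after seeing the data. Leaving out 1 sample gave 2 to 12 higher and 0 to 19 lower. Members with no overlap then numbered 1 to 7 higher and 7 to 15 lower, beside 23.9% to 28.2% of all genes apart in either direction against 15%, and 9 were higher without both samples, beside 35.9%. With the mean of a gene's kept probes 3 members were apart in the lower direction, beside 15.4% of all genes in either. With 1 sample left out, the median of all members ran from −0.043 to −0.0033, that of complex III from −0.11 to −0.025, of assembly factors from −0.022 to 0.024, of complex IV from −0.11 to −0.035, of biogenesis regulators from −0.028 to 0.017 and of the tricarboxylic acid cycle from −0.033 to 0.022, and those of complexes I, II and V changed sign. Without both samples complex IV was at −0.026. Complex III was at −0.094 with the stricter filter, assembly factors at −0.0027 with array weights and −0.0018 without both samples, and carriers at −0.0095 with the mean of probes. The cause was not tested. Of 525 recomputed changes of 33 named members, 21 in 12 members changed sign, 3 of these values being larger than their standard error. With the mean of kept probes Sdhb was at 0.085 and Cycs at 0.048, and without both samples Uqcr10 was at 0.044 and Uqcr11 at −0.027. With 1 sample left out, the change of Sdhb ran from −0.17 to 0.091, Sdhc from −0.080 to 0.17, Uqcr10 from −0.15 to 0.073, Uqcr11 from −0.046 to 0.069, Atp5b from −0.026 to 0.11, Atp5g2 from −0.014 to 0.14, Cox7a1 from −0.018 to 0.050, Cox7a2l from −0.17 to 0.019, Cox7b from −0.039 to 0.082, Ndufa13 from −0.052 to 0.12 and Ndufa4 from −0.071 to 0.040.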

Other observations

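Among assembly factors of complex III named after their values were seen, Uqcc1 was at 10.59, 10.49 and 10.53 at 2 months and 10.70, 10.95 and 10.68 at 8 months (change 0.24, SE 0.0805, limma adjusted p = 0.353), and Ttc19 at 9.31, 9.24 and 9.34 and then 9.50, 9.37 and 9.50 (change 0.16, SE 0.0580, limma adjusted p = 0.407). The ages did not overlap in either gene, both being higher at 8 months. Of all tested assembly factors 11.6% were apart in either direction, beside 15% of all genes. Bcs1l and Lyrm7, which also serve this complex, had changes of 0.020 (SE 0.0760) and 0.039 (SE 0.0467). None of these passed over all genes.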
